A study of Mus musculus with 4 samples.

Results

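Immediate early genes were examined in cultured mouse spermatogonia, as 10 genes chosen by symbol: Fos, Fosb, Fosl1, Jun, Junb, Atf3, Egr1, Klf6, Ier2 and Ier3. The choice was made with earlier results of these data known. All 10 were found among the 32285 genes of the deposited count table, and all 10 were among the 16005 that passed the filter on low counts. The cells are GS cells, spermatogonia grown in culture that had been started from testes of mice 10 days old. The study held 4 libraries of wild-type cells, 2 from strain C57BL/6 (B6) and 2 from strain 129, with no treatment named, and all were dissociated with trypsin before RNA was taken. The titles of the B6 libraries carry the mark F0, and those of the 129 libraries do not. Anything that this mark denotes cannot be told apart from strain here. The labels do not say if libraries of 1 strain are separate cultures, and p-values here rest on the spread between libraries, which may be technical. The labels do not describe the medium, the passage or any other cells in the dishes.

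Immediate early genes are transcribed soon after a stimulus reaches the cell, from factors that are already present and need no new protein synthesis. Their transcripts are short-lived, and many of their products are transcription factors that act on later genes. Fos and Jun family proteins pair through leucine zippers to form AP-1, which binds DNA at the AP-1 site. In spermatogonia, growth factors of the niche such as GDNF and FGF act through Ras and ERK, a route that also leads to Fos and Egr1. All but 1 of the genes encode transcription factors or nuclear regulators. Ier3 is the exception, a membrane-associated regulator of cell survival that is induced in the same early wave.

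Proximal promoters are shown first, as a description of sequence only. All 10 genes were higher in 129 replicate 1 than in 129 replicate 2. That gap lies between libraries of 1 strain, and a part of promoter sequence in it was not tested. The sequences come from an assembly that is not of strain 129, and 129 variants in them were not examined. RefSeq promoter sequences (GRCm38.p6, the assembly of mm10) were at hand for 7 of the 10 genes: Fos, Fosb, Jun, Junb, Atf3, Klf6 and Ier3. Below are the 150 bases before the transcription start for the 5 of them with the widest gap between the 129 libraries. Capitals mark the short CRE motif TGACG, its extension ACGTCA, the Jun-type AP-1 site TGACATCA and the TATA box TATAAA, on either strand.
Fosb, chr7:19310046-19310195, minus strand: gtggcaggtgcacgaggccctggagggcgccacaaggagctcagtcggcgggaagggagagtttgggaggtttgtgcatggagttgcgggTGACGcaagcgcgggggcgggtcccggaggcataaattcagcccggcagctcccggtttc
Atf3, chr1:191183334-191183483, minus strand: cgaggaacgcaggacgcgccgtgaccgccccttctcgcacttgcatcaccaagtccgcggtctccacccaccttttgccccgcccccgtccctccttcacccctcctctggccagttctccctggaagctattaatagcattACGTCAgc
Klf6, chr13:5861339-5861488, plus strand: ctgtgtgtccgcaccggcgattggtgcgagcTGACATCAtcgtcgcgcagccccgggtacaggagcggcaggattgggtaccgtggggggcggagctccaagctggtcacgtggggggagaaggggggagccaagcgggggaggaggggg
Jun, chr4:95052223-95052372, minus strand: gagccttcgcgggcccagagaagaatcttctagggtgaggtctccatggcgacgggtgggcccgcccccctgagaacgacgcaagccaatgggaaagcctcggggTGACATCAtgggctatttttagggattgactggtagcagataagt
Fos, chr12:85473740-85473889, plus strand: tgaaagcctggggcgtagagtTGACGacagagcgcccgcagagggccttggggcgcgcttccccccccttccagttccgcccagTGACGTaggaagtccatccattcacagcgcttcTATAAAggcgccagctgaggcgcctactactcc

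The promoters differed in which of these letters they held. Over the 250 bases before the start, the short CRE motif stood in 4 of 7 promoters (Fos, Fosb, Junb and Atf3), against 17.8% of the 32851 promoters in the RefSeq table. Its overlapping extension ACGTCA stood in Fos and Atf3, against 6.47% of all promoters. In Fos the extended match began 66 bases before the start and in Atf3 it began 8 bases before it. Jun and Klf6 shared the Jun-type site TGACATCA, 45 and 119 bases before the start, against 2.93% of all promoters. The TATA box letters stood in Fos alone of the 7, and 12.4% of all promoters held them. CCAAT was found in Jun, Junb, Klf6 and Ier3, against 33.8% of all promoters, and the EGR site GCGGGGGCG in Fosb, against 2.57%. No match was found for the full CRE TGACGTCA, for the AP-1 site TGANTCA or for the CArG box bound by SRF, which 1.55%, 6.75% and 1.47% of all promoters held. A match describes letters in this window and shows no bound factor. The lack of a match holds for these 250 bases only, because sequence farther upstream was not scanned. Egr1, Fosl1 and Ier2 were not scanned at all. The Atf3 window lies inside the gene as GENCODE M21 draws it, 34706 bases downstream of its outermost start.

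**Figure D1:**
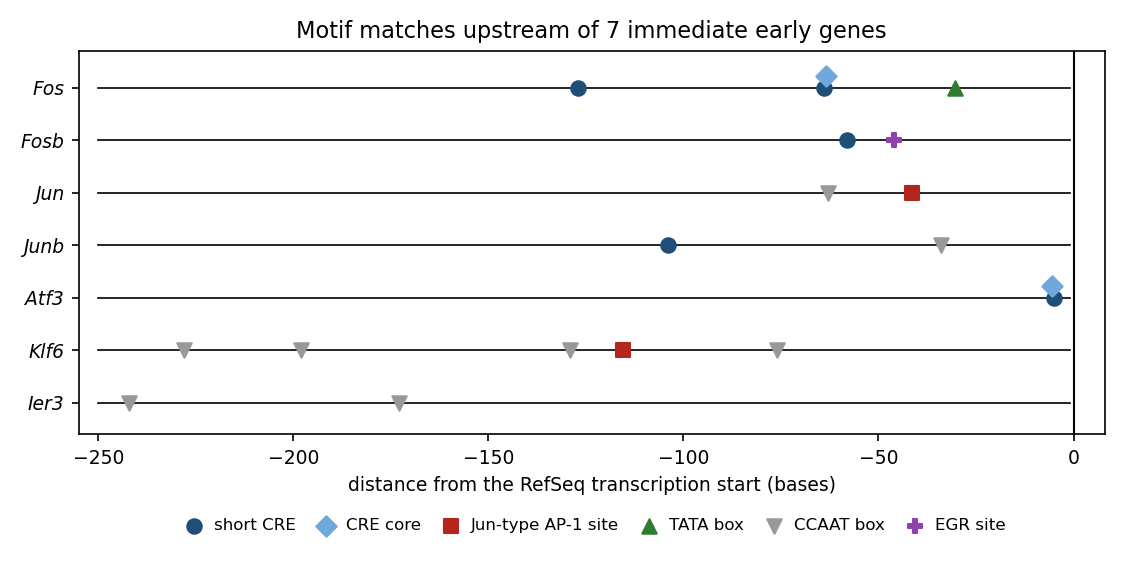
Matches to 6 motifs in the 250 bases before the RefSeq transcription start of 7 immediate early genes, with distance from the start in bases on the x axis and 1 line per gene. Short CRE matches appear on the Fos, Fosb, Junb and Atf3 lines, and the Jun-type AP-1 site on the Jun and Klf6 lines.

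Transcripts of the 10 genes were more abundant in 129 replicate 1 than in 129 replicate 2 in every case, while the B6 libraries lay closer together. Levels are CPM, read counts scaled to a common library size, here with TMM factors. The gap between libraries or strains was taken on log2(CPM + 0.5), which slightly understates the gap of low genes. The 129 libraries differed by a median of 1.69 over the 10 genes (log2 ratio of replicate 1 to replicate 2, -0.0046 over all genes tested). For the B6 libraries that median was 0.16 (-0.0011 over all genes tested). In absolute size, the median gap was 1.69 between the 129 libraries, 0.28 between the B6 libraries and 0.37 between the strain means. Over all genes tested the absolute medians were 0.29, 0.32 and 0.43. No immediate early gene passed the test between strains.

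Fos family genes included the gene with the largest excess of 129 replicate 1 over replicate 2 of all tested. Their products form AP-1 only with a partner. Fosb (chromosome 7, 19302696 to 19310051 in mm10) was at 166 and 157 CPM in B6, and at 419 and 32.5 CPM in 129. Both B6 libraries thus lay between the 129 libraries. The ratio of replicate 1 to replicate 2 in 129 was 12.9 (95% exact counting interval 11.9 to 13.95), and the difference in log2(CPM + 0.5) was 3.67, rank 1 of the 16005 genes tested. That interval, like those given for other genes here, covers only the error of counting reads in 1 library against 1. Variation between libraries is left out. The interval may be too narrow even for counting, because reads that carry no molecular identifier may be copies of 1 molecule. Ranks here run from the largest excess of 129 replicate 1, so that genes higher in replicate 2 come last. Fos (chromosome 12, 85473890 to 85477273) was at 349 and 296 CPM in B6, and at 492 and 144 CPM in 129. Its 129 ratio was 3.42 (3.29 to 3.57), and again both B6 libraries fell between those of 129. Fosl1, which encodes the Fos-related protein FRA1 (chromosome 19, 5447547 to 5455946), stood at 15.6 and 20.3 CPM in B6. In 129 it stood at 44.1 and 14.1 CPM, a ratio of 3.12 (2.74 to 3.57).

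Jun family genes were also highest in 129 replicate 1. Jun (chromosome 4, 95049034 to 95052222), whose product is the central partner of Fos proteins, was at 63.4 and 50.6 CPM in B6. It was at 212 and 55.8 CPM in 129, so that replicate 2 lay between the B6 libraries and replicate 1 stood above all others. Junb (chromosome 8, 84974484 to 84978718), which encodes a Jun protein of weaker transcriptional activity, was at 111 and 218 CPM in B6 and at 255 and 126 CPM in 129. Its B6 libraries were nearly as far apart as its 129 libraries, with log2 ratios of replicate 1 to replicate 2 of -0.97 and 1.02. The direction was opposite in the strains.

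Atf3 and Klf6 were among the genes with the widest gaps in 129. Atf3 (chromosome 1, 191170296 to 191218039), a stress-induced member of the ATF/CREB family, was at 16.5 and 9.85 CPM in B6 and at 37.5 and 5.07 CPM in 129. The 129 ratio was 7.40 (6.04 to 9.14), rank 10 of the genes tested on the log2(CPM + 0.5) scale. Its lowest library held 107 reads, the fewest for any of the 10 genes. Klf6 (chromosome 13, 5861482 to 5870394), a zinc finger factor, was at 78.0 and 65.7 CPM in B6 and at 137 and 31.3 CPM in 129, a ratio of 4.37 (4.01 to 4.76) and rank 65 on the same scale.

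Egr1, Ier2 and Ier3 had the narrowest gaps in 129. Egr1, a zinc finger factor that is a standard marker of ERK activity (chromosome 18, 34859823 to 34864984), was at 1102 and 1071 CPM in B6 and at 805 and 452 CPM in 129. Both 129 libraries lay below both B6 libraries, and Egr1 was the only one of the 10 genes whose strains did not overlap. Ier2 (chromosome 8, 84661331 to 84662852), a nuclear regulator, was at 77.7 and 61.7 CPM in B6 and at 129 and 72.5 CPM in 129. Its 129 replicate 2 lay between the B6 libraries. Ier3 (chromosome 17, 35821684 to 35822923) was at 56.6 and 61.1 CPM in B6 and at 77.7 and 39.5 CPM in 129, with both B6 libraries between the 129 libraries. The 129 ratios were 1.78 for Egr1, 1.79 for Ier2 and 1.97 for Ier3.

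**Figure D2:**
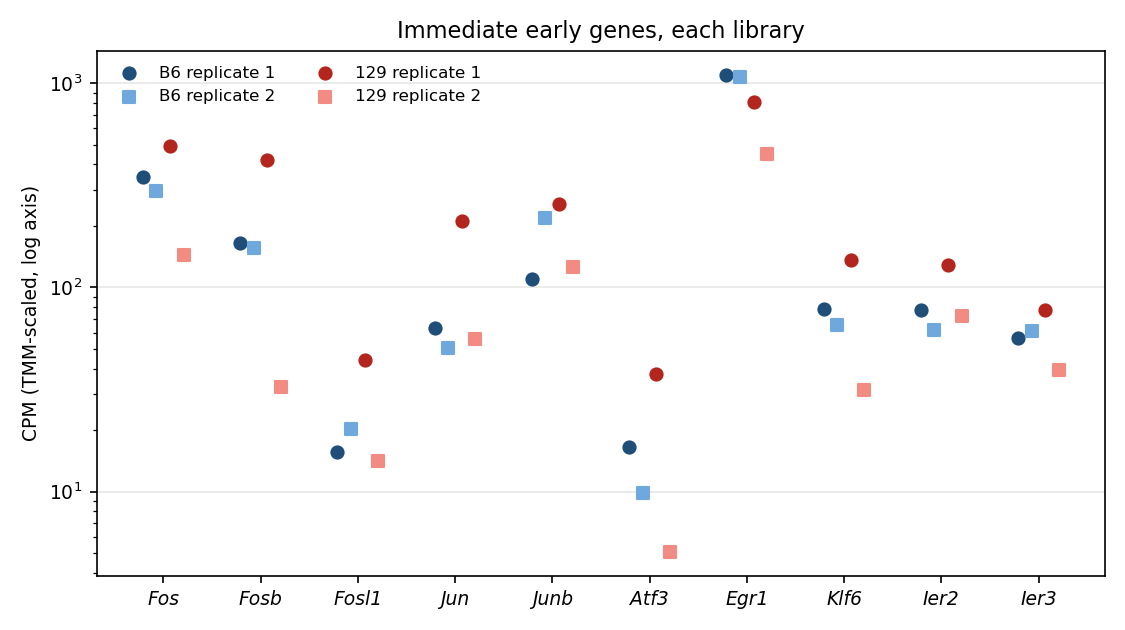
CPM of the 10 immediate early genes in each of the 4 libraries, on a log axis, with blue symbols for B6, red symbols for 129, circles for replicate 1 and squares for replicate 2. For each gene the 129 square lies below the 129 circle, from 419 down to 32.5 CPM in Fosb, and Egr1 is the gene with both red symbols under both blue ones.

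Per kilobase of exon, Egr1 and Fos were the most abundant of the 10 in each library. Counts were divided by the summed exon length in GENCODE M21, from 1.131 kb for Ier3 to 6.243 kb for Fosb. Egr1 stood at 246 and 239 CPM per kb in B6 and at 179 and 101 CPM per kb in 129. Fos stood at 148 and 126 CPM per kb in B6 and at 209 and 61.1 CPM per kb in 129, so that in 129 replicate 1 it ranked above Egr1 and in the other 3 libraries below it. Atf3 was the lowest of the 10 in each library, between 2.36 and 17.4 CPM per kb. Fosb ranked 6 in both B6 libraries and in 129 replicate 1, and 9 in 129 replicate 2. Neighbours in the middle of the order, such as Ier2 (40.6 to 85.0 CPM per kb over the 4 libraries) and Ier3 (34.96 to 68.7), overlapped. Jun, Junb, Fosl1 and Atf3 have an annotated gene on the opposite strand (Junos, Prdx2, Ccdc85b and Gm24748). How strand was treated in counting is not stated in the sources used here, so reads of those pairs may not have been separated.

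Between the strains, edgeR's quasi-likelihood test with Benjamini-Hochberg adjustment over the 16005 genes called 0 of the 10 genes. It called 2.86% of all genes tested. DESeq2 and limma-voom also called 0 of 10, where they called 15.3% and 1.64% of all genes. At an unadjusted p under 0.05, 1 of the 10 (Egr1) passed in edgeR, against 28.1% of all genes. With 2 libraries against 2, an exact permutation test of a single gene cannot go below p = 0.333 (two-sided).

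Egr1 and Jun had the largest strain differences, relative to their standard errors. Egr1 averaged 1086 ± 21.8 CPM in B6 and 628 ± 249 CPM in 129 (mean ± SD, n = 2 each), with a log2 fold change of 129 over B6 of -0.79 (SE 0.28, edgeR adjusted p = 0.13). Jun was at 57.0 ± 9.02 and 134 ± 111 CPM, with a log2 fold change of 1.23 (SE 0.57, edgeR adjusted p = 0.22). Neither difference passed the threshold of 0.05. For the other 8 genes the log2 fold change ran from -0.021 in Fos to 0.70 in Fosl1, with adjusted p from 0.31 to 0.99. The standard error exceeded the fold change in Fos (0.51), Fosb (0.94), Junb (0.43), Atf3 (0.83), Klf6 (0.60) and Ier3 (0.33).

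The sign of the strain difference rested on the scale of averaging in Fosb and Klf6. The edgeR log2 fold change, which compares mean levels, was 0.49 for Fosb and 0.23 for Klf6. The difference between the means of log2(CPM + 0.5) was -0.46 for Fosb and -0.12 for Klf6. Fosb means were 161 ± 6.43 CPM in B6 and 226 ± 273 CPM in 129. Over the 10 genes the median edgeR log2 fold change was 0.36, and the median difference of mean logs was 0.026. Scaling by library totals also turned the near-zero fold changes of Fos and Ier3, to 0.010 and 0.032.

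Without one or the other 129 library the strain difference changed direction in most of the genes. Without 129 replicate 1, 9 of 10 genes were lower in 129 by the fitted fold change, with a median of -0.86, and edgeR called 0 of them, against 0.0782% of all genes tested in that fit (4 of the 10 had an unadjusted p under 0.05). Without 129 replicate 2, 9 of 10 were higher, with a median of 0.91, and edgeR called 2 higher, against 4.92% of all genes tested in that fit, called in either direction. These were Jun (a log2 fold change of 1.90, adjusted p = 0.024) and Fosb (1.38, adjusted p = 0.030). In such a fit the lone 129 library is assumed to vary as the B6 libraries do. Fosb was at -2.31 without 129 replicate 1 (adjusted p = 0.097). Egr1 was lower in 129 in both cases (-1.26 and -0.43), and Ier2 was higher in both (0.060 and 0.89). Neither Egr1 nor Ier2 passed the test in either fit.

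**Figure D3:**
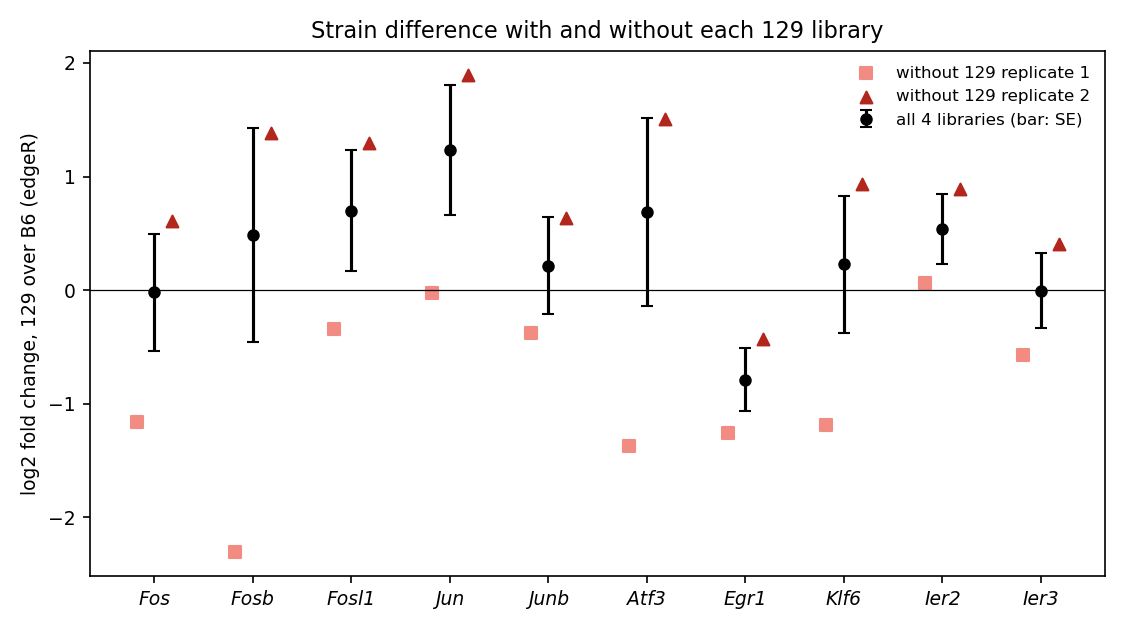
Log2 fold change of 129 over B6 by edgeR for each of the 10 genes with all 4 libraries (black, bar = SE), without 129 replicate 1 (pink squares) and without 129 replicate 2 (red triangles). Fosb runs from -2.31 to 1.38, whereas both values of Egr1 lie below 0 and both of Ier2 above it.

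The gap between the 129 libraries was wider than the gap between strains in 9 of the 10 genes. Over all genes tested that held for 35.5%, and for 35.3% of the 10262 genes that averaged 10 CPM or more. The exception was Egr1, where the absolute gaps were nearly equal (0.83 within 129 and 0.85 between strains). In Fosb they were 3.67 and 0.46, in Atf3 2.77 and 0.14, in Klf6 2.11 and 0.12, and in Ier3 0.97 and 0.084. The B6 gap was wider than the strain gap in 4 of 10, against 40.9% of all genes.

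Replicate 1 was above replicate 2 in 129 in 10 of 10 genes, against 49.5% of all genes. It was at least 2-fold above in 7 of 10 (Fos, Fosb, Fosl1, Jun, Junb, Atf3 and Klf6). Of all genes tested 9.02% met that fold, and of those that averaged 10 CPM or more 7.02%. In B6 the libraries were 2-fold apart in 0 of 10, against 10% of all genes. Both B6 libraries lay between a higher 129 replicate 1 and a lower 129 replicate 2 in 6 of 10 (Fos, Fosb, Fosl1, Atf3, Klf6 and Ier3), as they did in 3.57% of all genes. The strains' libraries did not overlap in 1 of 10, against 60.1% of all genes. These are counts from 1 library against 1 and have no test, and the 10 genes are not independent of each other. The genes were also chosen with earlier results of these data known, so the shares of all genes are given for scale only.

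**Figure D4:**
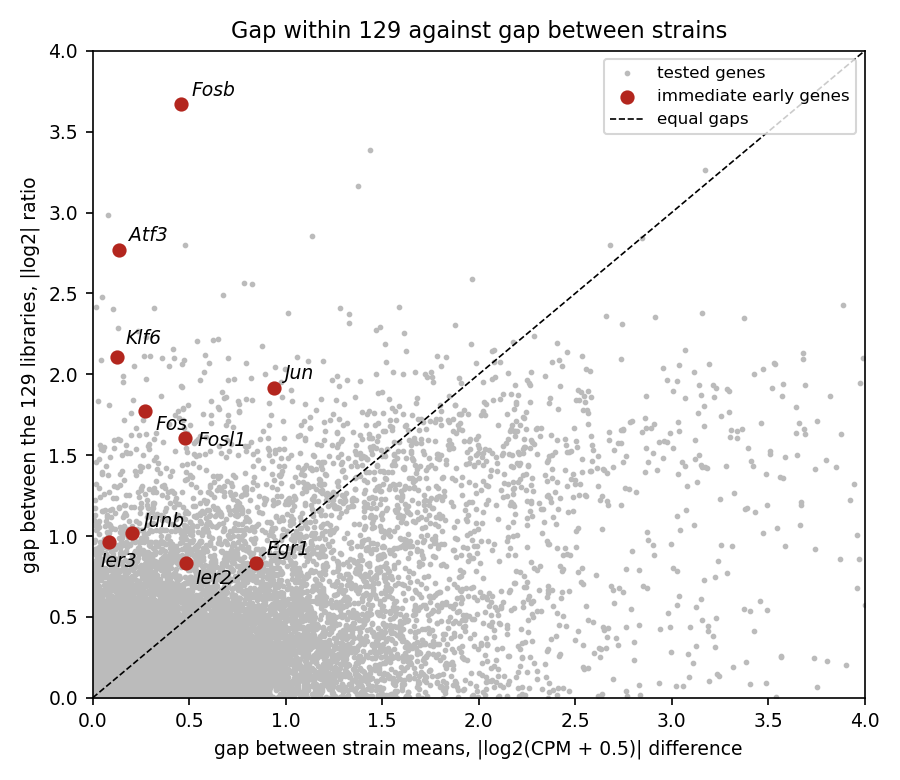
Absolute log2 gap between the 129 libraries (y axis) against the absolute gap between the strain means of log2(CPM + 0.5) (x axis), with tested genes in grey and the 10 immediate early genes in red; 52 tested genes lie outside the axes. Except for Egr1 (0.85 and 0.83), the red points lie above the dashed line of equal gaps.

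Other immediate early transcription factors, taken from a wider list, went with the 10 genes in part. Of 20 such genes, which include Egr2 to Egr4, the Nr4a nuclear receptors, Klf2, Klf4 and Myc, 18 were higher in 129 replicate 1 and 11 were at least 2-fold higher, with a median log2 ratio of 1.18. The orphan nuclear receptor gene Nr4a1 was at 90.2 and 140.5 CPM in B6 and at 449 and 135 CPM in 129 (a log2 fold change of 1.34, SE 0.54, edgeR adjusted p = 0.17). Egr4 stood apart, at 282 and 322 CPM in B6 and at 162 and 183 CPM in 129, with 129 replicate 2 slightly the higher (a log2 fold change of -0.81, SE 0.18, edgeR adjusted p = 0.058). Between strains edgeR called 0 of the 20 and DESeq2 called 2 higher and 3 lower, with 8 at an unadjusted edgeR p under 0.05. The 5 that DESeq2 called, named after their values were seen, were Myc and Maff, higher, and Egr3, Egr4 and Nr4a3, lower.

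Dimer partners and related basic leucine zipper genes showed a smaller gap. Of 14 such genes, 9 were higher in 129 replicate 1 and 2 at least 2-fold so (Fosl2 and Maf), with a median log2 ratio of 0.37. Between strains 1 of 14 rose in 129 and 13 did not pass, with a median log2 fold change of 0.43 against 0.015 over all genes tested. DESeq2 called 3 higher (Maf, Maff and Atf4, the latter pair named after their values were seen), and edgeR with library totals called 2, against 6.57% of all genes. The gene that rose was Maf, a large Maf family factor, from 1.37 and 0.79 CPM in B6 to 52.1 and 15.6 CPM in 129 (a log2 fold change of 4.94, SE 0.76, edgeR adjusted p = 0.036).

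The kinases and factors upstream of this response centred near 0 in this comparison. Among 21 genes of ERK, JNK and p38 signalling and of SRF, its cofactors and CREB, 8 were higher in 129 replicate 1 and 1 at least 2-fold so (Elk3, an Ets family factor, singled out after its value was seen), with a median log2 ratio of -0.073. The p38 gene Mapk14 was at 269 and 181 CPM in B6 and at 149.8 and 152 CPM in 129. Between strains edgeR called 0 of 21 and DESeq2 called 2 higher (Elk3 and Mrtfa) and 1 lower (Elk4), with 6 at an unadjusted edgeR p under 0.05. Transcript levels of kinases say nothing of their activity.

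Feedback inhibitors and RNA decay genes were mixed, whereas secreted and other early response genes had the largest median ratio of the lists beside the 10 genes. Of 22 feedback and decay genes 17 were higher in 129 replicate 1 and 7 at least 2-fold so, with a median log2 ratio of 0.38. DESeq2 called 2 of these higher between strains (Socs3 and Spry2) and 1 lower (Dusp10). By edgeR 1 of these 22 rose: Socs3, an inhibitor of cytokine signalling, from 102 and 115 CPM in B6 to 319 and 316 CPM in 129 (a log2 fold change of 1.55, SE 0.18, edgeR adjusted p = 0.029). Of 24 secreted and other early response genes 24 were higher in 129 replicate 1 and 18 at least 2-fold so, with a median log2 ratio of 1.43. In that list edgeR called 1 gene higher and 1 lower between strains, and DESeq2 called 5 higher (Gdf15, Gadd45g, Id1, Id2 and Id3) and 1 lower (Pim1). Gdf15, a stress-induced cytokine, rose from 1.29 and 0.64 CPM to 51.4 and 12.0 CPM (a log2 fold change of 4.99, SE 0.88, edgeR adjusted p = 0.047). Pim1, a serine/threonine kinase gene, fell from 372 and 452 CPM to 98.4 and 77.8 CPM (a log2 fold change of -2.23, SE 0.21, edgeR adjusted p = 0.029).

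Heat shock genes also centred near 0 between the 129 libraries. Of 12 such genes 6 were higher in replicate 1 and 0 at least 2-fold so, with a median log2 ratio of -0.016. Between strains 1 of 12 fell, the chaperone gene Hspa1a, from 52.5 and 28.4 CPM in B6 to 6.86 and 4.41 CPM in 129 (a log2 fold change of -2.85, SE 0.44, edgeR adjusted p = 0.035). Its near-identical copy Hspa1b was at 35.2 and 18.3 CPM in B6 and at 23.0 and 14.7 CPM in 129. How reads matching both copies were counted was not tested, so both levels are uncertain. DESeq2 called Hspa1a lower and 2 other heat shock genes, Hsph1 and Hspb1, higher. The calls of Maf, Socs3, Gdf15, Pim1 and Hspa1a each ended without B6 replicate 1, without B6 replicate 2 or without 129 replicate 1, where edgeR called 0, 1 and 13 genes in all. Hspa1a was also lost without 129 replicate 2 (edgeR adjusted p = 0.062), Gdf15 was lost with no filter on low counts (edgeR adjusted p = 0.055), and Maf, Gdf15 and Hspa1a were not called by limma-voom.

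**Figure D5:**
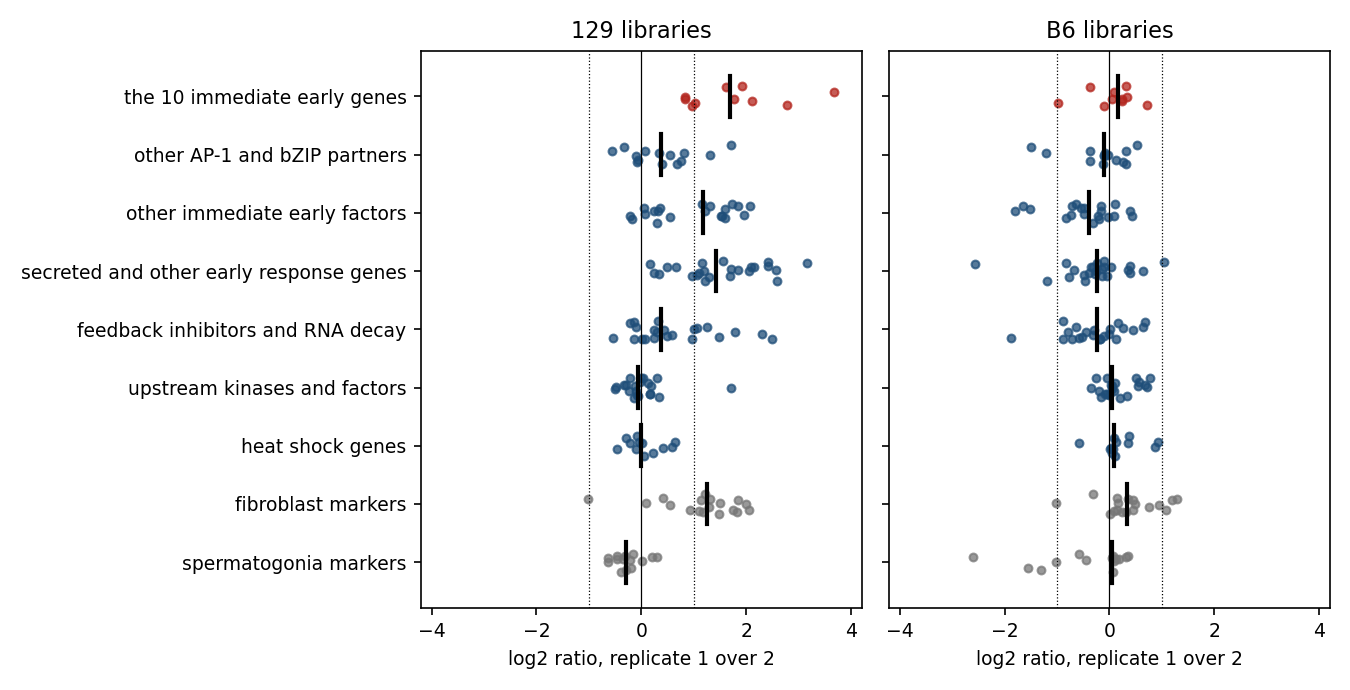
Log2 ratio of replicate 1 to replicate 2 for each tested gene of 9 lists, in 129 on the left and in B6 on the right, with a black bar at the list median and dotted lines at 2-fold. In 129 the 10 immediate early genes have a median of 1.69, secreted and other early response genes 1.43 and fibroblast markers 1.25, while heat shock genes (-0.016) and upstream kinases and factors (-0.073) centre near 0.

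Markers of other cells differed between the same libraries. Of 18 fibroblast markers, 17 were higher in 129 replicate 1 than in replicate 2, 13 of them at least 2-fold so. Their summed level was 4539 and 1699 CPM in 129 and 5231 and 3400 CPM in B6. The ratio of replicate 1 to replicate 2 was therefore 2.67 in 129 and 1.54 in B6, where the 10 immediate early genes summed to ratios of 2.68 and 1.01. Each fibroblast marker had reads in each library. Between strains the fibroblast list was split. DESeq2 called 6 of 18 higher and 6 lower in 129, against 15.3% of all genes called in either direction. Prrx1 was at 321 and 80.5 CPM in 129 and at 37.2 and 26.3 CPM in B6. Fbn1 went the other way, at 78.3 and 31.2 CPM in 129 and at 376 and 154 CPM in B6. Macrophage markers summed to 51.1 and 19.5 CPM in 129 and to 29.4 and 28.4 CPM in B6, and 5 of 5 tested were higher in 129 replicate 1. Of these, Mrc1 had only 26 reads against 23. Cd14 held most of the sum in 129 replicate 1, at 28.3 and 9.20 CPM in 129 and 2.45 and 3.47 CPM in B6. Lyz2 was lower in 129, at 7.87 and 3.32 CPM against 9.72 and 16.8 CPM in B6. Adgre1, Ptprc and Cx3cr1 did not pass the filter on low counts. Endothelial markers summed to 204 and 86.9 CPM in 129 and to 24.9 and 23.8 CPM in B6, with 3 of 6 tested higher in 129 replicate 1. Cdh5 and Eng carried most of the difference, at a sum of 184 and 59.6 CPM in 129 and of 5.46 and 7.62 CPM in B6. The other endothelial markers summed to 20.4 and 27.3 CPM in 129 and to 19.4 and 16.2 CPM in B6. Peritubular muscle markers summed to 93.2 and 40.3 CPM in 129, a ratio of 2.31, and to 81.3 and 23.6 CPM in B6, a ratio of 3.45. Leydig markers summed to 4.203 to 9.04 CPM. Sertoli markers summed to 699 and 586 CPM in 129 and to 680 and 627 CPM in B6. Without Dmrt1, which germ cells also express, they summed to 399.8 and 179 CPM in 129 and to 60.9 and 42.3 CPM in B6. The Sertoli receptor gene Fshr had no count in 3 of the 4 libraries, while Clu stood at 193 and 90.5 CPM in 129 and at 3.78 and 10.1 CPM in B6. Rhox5 stood at 64.5 and 19.4 CPM in 129 and at 0.24 and 0.79 CPM in B6, and Kitl at 113 and 29.4 CPM against 13.5 and 7.92 CPM. Clu, Rhox5 and Kitl thus carried most of that sum in 129. Inhbb went the other way between strains, at 2.61 and 2.51 CPM in 129 and at 27.1 and 9.85 CPM in B6. Wt1 was higher in 129 replicate 2, at 12.7 and 26.1 CPM in 129 and at 11.0 and 5.84 CPM in B6. Of 11 Sertoli markers tested, 8 were higher in 129 replicate 1, 3 of them at least 2-fold so. Spermatogonial markers were present throughout, at 2923 and 3700 CPM in 129 and at 3727 and 3982 CPM in B6. Of 14 such markers 3 were higher in 129 replicate 1 than in replicate 2. Single spermatogonial markers went opposite ways between strains. DESeq2 called 2 of 14 higher in 129 (Etv5 and Ret) and 3 lower (Uchl1, Nanos2 and Id4), against 15.3% of all genes called in either direction. Among the markers edgeR called Pdgfra, Clu, Rhox5, Cdh5, Eng, Des and Etv5 higher and Uchl1 lower in 129, against 2.86% of all genes. Each of these calls ended without B6 replicate 1, without B6 replicate 2 or without 129 replicate 1. Pdgfra, Rhox5, Cdh5 and Eng were not called by limma-voom. The part of other cells in the gap of the immediate early genes was not tested. Fewer cells of a type and less RNA per cell cannot be told apart in such bulk libraries.

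Genes outside the set also lay close to the median profile of the 10 genes over the 4 libraries. They were picked by that closeness, so finding such genes is no test. Each gene's log2(CPM + 0.5) was centred on its mean over the 4 libraries and compared with the median profile of the 10 genes, by Euclidean distance. Among genes that averaged 10 CPM or more the nearest were Il4ra (0.15), Dclk1 (0.18), Pvr (0.19), Hes1 (0.21) and Arl4c (0.21). Il4ra, a subunit of the interleukin-4 receptor, was at 76.5 and 65.8 CPM in B6 and at 125 and 42.7 CPM in 129. Hes1, a Notch-responsive transcriptional repressor, was at 111 and 119 CPM in B6 and at 192 and 64.8 CPM in 129. Hes1 also stands in the list of secreted and other early response genes. Fos itself lay at a distance of 0.38 (rank 30 among all genes tested) and Klf6 at 0.45 (rank 60). Fosb, with its wider range, lay at 1.57 (rank 11906) and Egr1 at 1.05 (rank 2613).

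The libraries held 20375086 to 25374801 counts in all, and the 10 genes took 0.10% of the counts in 129 replicate 2, 0.26% in 129 replicate 1 and 0.20% in each B6 library. Across all tested genes, which are not independent replicates, Pearson's r of log2(CPM + 0.5) was 0.970 between the B6 libraries, 0.973 between the 129 libraries and 0.899 to 0.948 between strains. The libraries of a strain were not copies of each other, with a chi-square per gene of 58.6 in B6 and 74.99 in 129.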

How the data were processed

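RNA-seq counts were used from 4 libraries, assigned to strain and replicate number by their titles. The authors deposited raw counts of reads per gene. The submitters' processing notes name HTSeq 0.13.5, HISAT2 2.2.1, DESeq2 1.30.1, cutadapt 3.4 and bcl2fastq 2.20, and the build mm10, which is a C57BL/6 genome. Any loss of 129 reads at strain variants was not tested. The annotation release and the handling of strand are not stated in the sources used here. Single reads of 76 bp came from stranded mRNA libraries, per the labels' protocols.

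From the counts, edgeR 4.0.16 (R 4.3.3) was run with filterByExpr, TMM factors and its quasi-likelihood test (robust, legacy = FALSE), with strain as the only term and a threshold of 0.05 on Benjamini-Hochberg adjusted p over all tested genes. Each SE was derived from the fold change and its F statistic. Gaps used log2(CPM + 0.5). Alternatives were DESeq2 1.42.0, limma-voom (limma 3.58.1), DESeq2 size factors, library totals, no filter, pseudocounts of 0.1 and 2, a replicate block and each library left out. The fit was tested on simulated data.

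The 10 genes and all lists were chosen with earlier results of these data known. Named list genes were up to 2 called genes of the largest fold per direction, or else the 2 most abundant, of which 1 is not reported here. Maff stands in 2 lists. Positions and exon lengths came from GENCODE M21, which holds 32235 of 32285 identifiers, and promoters from RefSeq. Where a symbol had several identifiers (38 symbols), the one of highest count kept it.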

Additional observations from a re-analysis of the deposited data

How the results depend on the processing

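The 9 of 10 genes with a wider gap between the 129 libraries than between strains numbered 9 with DESeq2 size factors, library totals and pseudocounts of 0.1 and 2, and 10 and 9 without B6 replicate 1 and 2 (added after the data were seen). The 7 of 10 at least 2-fold apart in 129 were 6 with library totals. Genes called between strains numbered 457 with all libraries, 1052 with library totals, 260 with no filter, 2455 in DESeq2, 263 in limma-voom and 0 to 827 with a library left out. Of the 10 genes, 0 were called with all 4 libraries, and 0 to 2 with a library left out. Their strains' libraries did not overlap in 2 to 10 of 10 with a library left out (3 without B6 replicate 1, against 81.8% of all genes, 2 without B6 replicate 2, against 83.8%, 7 without 129 replicate 1, against 75%, and 10 without 129 replicate 2, against 79.8%).

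Fold changes turned direction in limma-voom for Fosb (-0.47) and Klf6 (-0.14) and with library totals for Fos (0.010) and Ier3 (0.032). With a library left out they ran from -1.16 to 0.61 in Fos, -2.31 to 1.38 in Fosb, -0.34 to 1.299 in Fosl1, -0.027 to 1.90 in Jun, -0.38 to 0.74 in Junb, -1.38 to 1.51 in Atf3, -1.19 to 0.93 in Klf6 and -0.57 to 0.40 in Ier3. The replicate numbers do not pair the libraries by any label, and the difference of replicate 1 and 2 in B6 correlated with that in 129 at -0.019 over genes. With the replicate block edgeR called 844 genes and 0 of the 10, and Fosb and Klf6 were at -0.45 and -0.12. The legacy form of the edgeR test, added after the data were seen, changed no direction among the 10 genes. Each of the 10 genes held at least 107 reads in each library.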
